A study of Mus musculus with 24 samples.

Results

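Genes that carry fatty acids into muscle cells, store them and steer their oxidation were followed across cultured mouse muscle cells. They are Lpl, Angptl4, Cd36, Fabp3, Fabp4, Plin2, Pdk4, Cpt1a, Cpt1b and Ucp3. All 10 were found by gene symbol among the 56748 genes of the count table. The set was chosen by the measured change of Lpl with aldosterone in myotubes, which differed between mdx and C57 cells, and was then filled with genes of the same pathway. That contrast between lines is therefore given as a description, with no test, and so are the changes of Lpl within each line.

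The cells were primary cells of the hindlimb muscle of mice under 5 days old. The mdx cells came from the C57BL/10-Dmdmdx line, in which dystrophin, encoded by Dmd, is mutated, and the C57 cells came from C57BL/10 mice. Myotubes, the multinucleate cells that form when myoblasts fuse, received 1 µM aldosterone or 0.001% DMSO (vehicle) for 48 h. All myotubes were then given fresh medium without hormone for 15 h before lysis, so their RNA was taken after this interval. Fibroblasts were not dosed. They received the medium that aldosterone-treated or vehicle-treated myotubes had conditioned, for 24 h, and are called here fibroblasts in aldosterone medium and in vehicle medium. All media of this phase contained charcoal-stripped horse serum. The 8 groups (mdx and C57 myotubes and fibroblasts, each with aldosterone and vehicle) held 3 libraries each, labelled as biological replicates 1 to 3. How many animals each replicate drew on is not stated, so p-values measure the spread between these libraries.

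Lipoprotein lipase, the product of Lpl, frees fatty acids from triglyceride-rich lipoproteins at the capillary wall, where the endothelial protein GPIHBP1 anchors it, and ANGPTL4 inactivates it. CD36 helps fatty acids cross the plasma membrane. FABP3 is the fatty acid binding protein of heart and muscle, whereas FABP4 is that of adipocytes, macrophages and some endothelial cells. PLIN2 coats lipid droplets. CPT1A (liver type) and CPT1B (muscle type) make the acylcarnitines that enter mitochondria, PDK4 shuts off pyruvate dehydrogenase so that less glucose carbon is burned, and UCP3 is a mitochondrial carrier of skeletal muscle whose gene responds to fatty acid supply. Many of these genes are targets of PPAR nuclear receptors.

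Libraries held 14133165 to 31144746 counts in myotubes and 16964960 to 42698139 in fibroblasts. Dmd averaged 52.6 ± 15.2 and 43.6 ± 10.1 CPM, counts scaled to a common library total, in mdx myotubes with aldosterone and vehicle, against 465 ± 33.1 and 387 ± 46.2 CPM in C57 myotubes (SD, n = 3 each). The 12 myotube markers summed to at least 27609 CPM in every myotube library and to at most 179 CPM in any fibroblast library. Of the 10 fibroblast markers, Tcf21 had no count in any library. The others summed to at least 16500 CPM in every fibroblast library. In myotubes this sum was 1151, 4686 and 2285 CPM in mdx with aldosterone and 1373, 4405 and 1568 CPM in mdx with vehicle. It was 411, 711 and 840 CPM in C57 with aldosterone and 326, 1097 and 762 CPM in C57 with vehicle, below every mdx myotube library. In such bulk libraries, fewer cells of a type and less RNA per cell cannot be told apart.

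The 10 genes spanned several orders of magnitude per gene length. In FPKM, the deposited values scaled by gene length and library total, Fabp3 was the highest of them in myotubes, at 373 to 716 FPKM over the 12 libraries. Pdk4 followed at 117 to 255 FPKM and Cd36 at 33.8 to 69.4 FPKM, and these ranges did not overlap. Plin2 lay at 16.7 to 33.6 FPKM. The ranges of Angptl4, Cpt1a, Ucp3 and Lpl overlapped one another, between 0.393 FPKM (Lpl in an mdx vehicle library) and 11.7 FPKM (Angptl4). Fabp4 lay at 0.189 to 2.38 FPKM, so that Fabp3 exceeded it by at least 301 times in every myotube library.

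In fibroblasts the order was another one. Angptl4 (19.0 to 33.1 FPKM), Cpt1a (19.2 to 24.9 FPKM), Plin2 (15.8 to 21.0 FPKM) and Pdk4 (13.9 to 20.5 FPKM) stood at the top with overlapping ranges. Lpl (1.98 to 3.43 FPKM), Fabp3 (1.66 to 3.99 FPKM) and Fabp4 (0.912 to 2.68 FPKM) overlapped at a lower level. Ucp3 had 0 to 10 reads per fibroblast library. Cpt1b, the isoform named for muscle, had 2 to 18 reads per myotube library and 0 to 17 reads per fibroblast library. Cpt1b (ENSMUSG00000078937, mm39 chromosome 15, 89300608 to 89310066, minus strand) overlaps the same-strand gene Gm44502, which had 0 counts in every library. How reads shared by overlapping genes were counted is not stated, so the level of Cpt1b is uncertain.

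**Figure D1:**
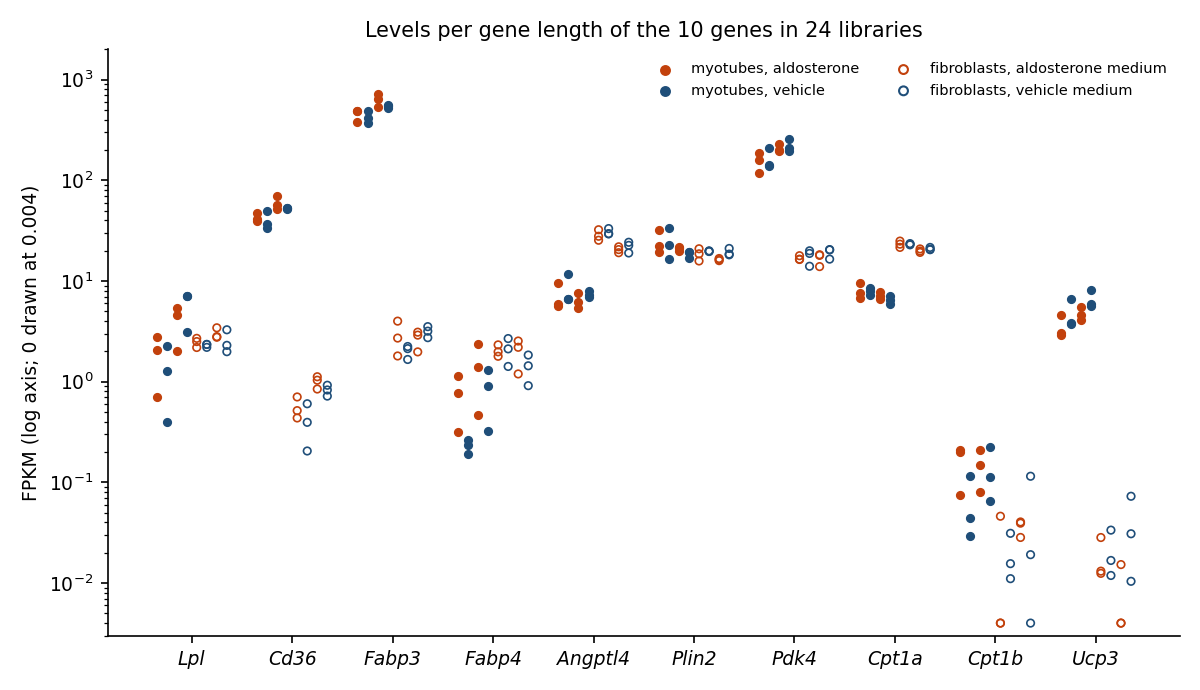
FPKM of the 10 genes in each of the 24 libraries, on a log axis with 0 drawn at 0.004. Each column of 3 points is a group, in the order mdx aldosterone, mdx vehicle, C57 aldosterone, C57 vehicle, first in myotubes (filled) and then in fibroblasts (open). Cd36, Fabp3, Pdk4 and Ucp3 stood higher in myotubes than in fibroblasts, Angptl4 and Cpt1a lower.

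Most of these genes differed between vehicle myotubes and vehicle-medium fibroblasts, as did most genes of the table. Of the 9 members with enough counts to be tested, 4 were higher and 2 lower in C57 myotubes at an adjusted p below 0.05 (edgeR quasi-likelihood test with Benjamini-Hochberg adjustment). Over all 17435 genes tested, 37.5% were higher and 37.2% lower, 74.7% together. In mdx, 4 members were higher and 3 lower, beside 36.2% and 34.7% of all genes, 70.9% together. A share of members near that of all genes says nothing particular about them. Lpl is counted among the 9, although its values are descriptions.

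The uptake and binding genes Cd36 and Fabp3 were far higher in myotubes. Over all vehicle libraries, the calls counted above had adjusted p values of at most 0.00013. Cd36 (ENSMUSG00000002944, mm39 chromosome 5, 17986688 to 18093799, minus strand) averaged 143 ± 26.9 CPM in mdx myotubes and 1.49 ± 0.778 CPM in mdx fibroblasts (SD, n = 3 each), a log2 difference of 6.50 (SE 0.26). In C57 it averaged 184 ± 3.50 CPM in myotubes and 3.06 ± 0.427 CPM in fibroblasts, a log2 difference of 5.97 (SE 0.24). Fabp3 (ENSMUSG00000028773, mm39 chromosome 4, 130202388 to 130209256, plus strand) was higher in myotubes by 7.76 (SE 0.15) in mdx and 7.40 (SE 0.14) in C57 on the log2 scale. It overlaps Zcchc17 on the opposite strand, which lay at 22.5 to 52.1 CPM over the 24 libraries. The libraries did not mark strand, so part of the reads of Fabp3 may belong to that gene, and how many was not tested. Fabp3 had 1.44 to 3.46 CPM over the 12 fibroblast libraries and 305 to 584 CPM over the 12 myotube libraries.

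Fabp4 (ENSMUSG00000062515, mm39 chromosome 3, 10269148 to 10273636, minus strand) went the other way. It had 1.08, 1.18 and 0.825 CPM in mdx vehicle myotubes, against 6.29, 12.7 and 9.72 CPM in mdx vehicle-medium fibroblasts, a log2 difference of -3.17 (SE 0.49, adjusted p = 0.00013). In C57 the values were 1.43, 5.71 and 3.99 CPM in myotubes and 6.83, 4.20 and 8.47 CPM in fibroblasts, which overlap (-0.73, SE 0.42, adjusted p = 0.134). Leaving out a library gave -1.25 to -0.33, and the difference passed in 1 of 6 such fits, without C57 myotube vehicle replicate 2 (-1.25, adjusted p = 0.027). The difference of Fabp4 between the lines was -2.44 (SE 0.65, adjusted p = 0.178) and did not pass, but passed without C57 myotube vehicle replicate 1 (-2.84, adjusted p = 0.0325).

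The genes that gate oxidation were split. Pdk4 (ENSMUSG00000019577, mm39 chromosome 6, 5483351 to 5496309, minus strand) was higher in myotubes by 3.21 (SE 0.20) in mdx and 3.50 (SE 0.20) in C57 on the log2 scale. Ucp3 (ENSMUSG00000032942, mm39 chromosome 7, 100122197 to 100135639, plus strand) was higher by 7.53 (SE 0.45) in mdx and 7.23 (SE 0.40) in C57. Its fibroblast level rests on few reads, so these fitted sizes are imprecise. Cpt1a (ENSMUSG00000024900, mm39 chromosome 19, 3372334 to 3435733, plus strand) was lower in myotubes by -1.55 (SE 0.08) in mdx and -1.70 (SE 0.08) in C57.

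Of the LPL pair, Angptl4 (ENSMUSG00000002289, mm39 chromosome 17, 33992724 to 34000804, minus strand) was lower in myotubes by -1.86 (SE 0.20) in mdx and -1.59 (SE 0.20) in C57 on the log2 scale. For Lpl, the log2 difference was -0.88 (SE 0.53) in mdx, between -1.55 and -0.39 with a library left out, and 1.18 (SE 0.50) in C57, between 1.00 and 1.48. The mdx value minus the C57 value was -2.05 (SE 0.73). The vehicle myotube libraries in these differences are also in the contrast that chose Lpl, so they are descriptions with no test. In the difference between the lines, 0 of 9 members passed in edgeR, beside 0.00574% of all genes. At an unadjusted p below 0.05 there were 2, beside 11.9% of all genes. They were Fabp4 and Lpl, which is counted here although its value is a description. DESeq2 called 1 member (Fabp4), beside 359 genes in all. Plin2 (ENSMUSG00000028494, mm39 chromosome 4, 86566623 to 86588297, minus strand) differed by 0.31 (SE 0.20) in mdx and -0.08 (SE 0.20) in C57 and did not pass. With a library left out the mdx value lay between -0.01 (without mdx myotube vehicle replicate 1) and 0.53 (without replicate 3, adjusted p = 0.0053), and it passed in 1 of 6 such fits.

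**Figure D2:**
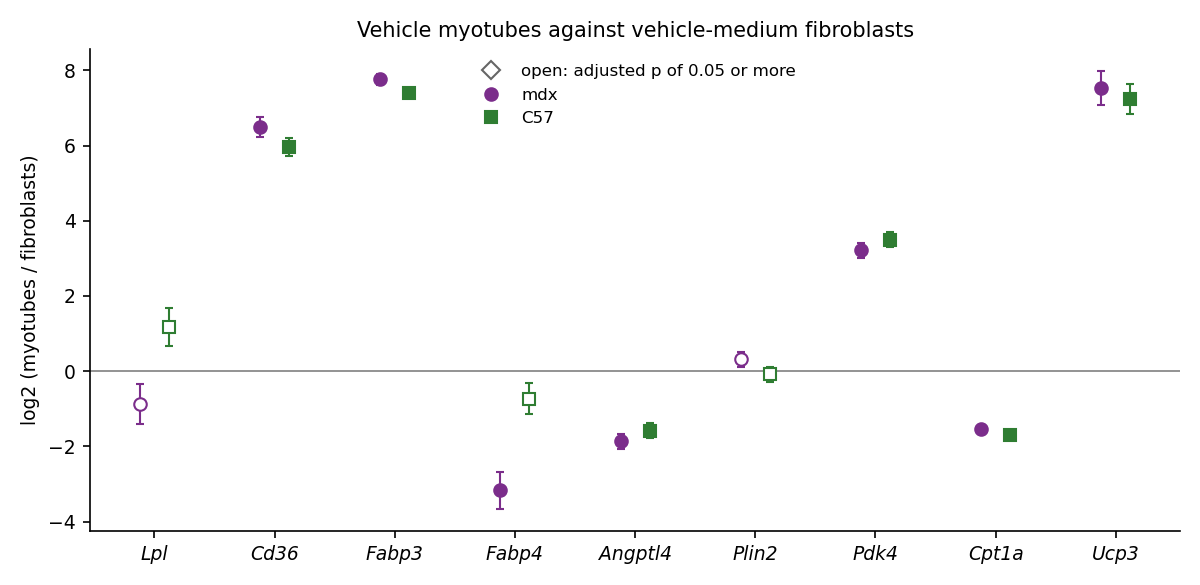
Log2 ratio of vehicle myotubes to vehicle-medium fibroblasts for the 9 genes with enough counts, in mdx (circles) and C57 (squares). Bars are the approximate standard error, and open symbols had an adjusted p of 0.05 or more. Lpl, also drawn open, is a description with no test. Lpl is the only one of the 9 with a value below 0 in mdx and above 1 in C57.

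The other genes of these pathways, from lists chosen with earlier results of these data known, were compared in the same fit. Of 23 genes of mitochondrial fatty acid oxidation, 23 were higher in mdx myotubes and 22 in C57 myotubes than in fibroblasts, with 0 lower, beside 36.2% (mdx) and 37.5% (C57) of all genes higher. The median log2 difference was 0.78 in mdx and 0.95 in C57, against -0.01 and 0.00 over all genes. Acadl, a long-chain acyl-CoA dehydrogenase, averaged 410 CPM in mdx myotubes and 103 CPM in mdx fibroblasts, a log2 difference of 2.04 (SE 0.09). Crat, the carnitine acetyltransferase, differed by 2.09 (SE 0.10) and Mlycd, which removes the CPT1 inhibitor malonyl-CoA, by 2.12 (SE 0.08). Of 11 genes of fatty acid and triglyceride synthesis, 9 were lower in myotubes of each line and 2 higher, beside 34.7% (mdx) and 37.2% (C57) of all genes lower. Srebf1, a transcription factor of lipid synthesis, differed by -1.11 (SE 0.07) in mdx and Acaca, the acetyl-CoA carboxylase of the cytosol, by -0.75 (SE 0.06).

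Of the 17 tested genes of the uptake list, 6 were higher and 9 lower in myotubes of each line. The share higher is near that of all genes (36.2% in mdx and 37.5% in C57), against which the other counts here are also to be read. The 3 uptake genes with the smallest adjusted p were acyl-CoA synthetases, all higher: Acsl1 averaged 47.0 CPM in mdx myotubes and 12.1 CPM in mdx fibroblasts. Acsl3 averaged 211 CPM in mdx myotubes and 20.9 CPM in mdx fibroblasts, and Acsl6 43.7 and 0.429 CPM. Among 18 regulators of the PPAR pathway, 13 were higher and 4 lower in mdx myotubes, and 12 and 4 in C57 myotubes. Rxrg, a partner of PPAR receptors, averaged 13.9 CPM in mdx myotubes and 0.445 CPM in mdx fibroblasts. The related orphan receptors Esrrg and Esrrb differed by 7.25 (SE 0.34) and 8.35 (SE 0.36) on the log2 scale. Of 18 tested genes of lipid droplets and lipolysis, 10 were higher in each line, with 5 lower in mdx and 6 in C57. Pdhb and Pdha1, subunits of pyruvate dehydrogenase, and Pdk2 were among 5 of 8 genes of that complex and its kinases that were higher in each line.

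Lpl (ENSMUSG00000015568, mm39 chromosome 8, 69333143 to 69360100, plus strand) varied more between myotube libraries than between fibroblast libraries. In mdx myotubes it had 7.38, 21.7 and 29.0 CPM with aldosterone (replicates 1 to 3), against 4.20, 13.2 and 23.0 CPM with vehicle. In C57 myotubes it had 20.9, 55.7 and 47.2 CPM with aldosterone, against 31.8, 72.3 and 72.3 CPM with vehicle. The libraries of aldosterone and vehicle overlapped within each line, and replicate 1 was the lowest in all 4 myotube groups.

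Compared within each replicate number, Lpl was higher with aldosterone in all 3 mdx pairs and lower in all 3 C57 pairs. The log2 change was 0.81, 0.71 and 0.33 in mdx and -0.61, -0.38 and -0.61 in C57. The fitted change was 0.55 in mdx and -0.52 in C57, or 0.56 and -0.54 with the replicate number as a block, a difference between lines of 1.07 or 1.10. Leaving out one replicate number at a time, with the block, the difference lay between 1.02 and 1.30. Without the block, leaving out a library gave values from 0.60 (without mdx vehicle replicate 1) to 1.73 (without mdx vehicle replicate 3). These values chose the gene set, and no test is attached to them. The mean of the fitted changes in both lines was 0.02. It is made of the same libraries and is likewise a description.

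In fibroblasts, which the choice did not use, Lpl had 26.6, 29.7 and 23.5 CPM in mdx aldosterone medium and 22.7, 25.8 and 25.1 CPM in mdx vehicle medium. In C57 fibroblasts it had 29.9, 36.7 and 29.6 CPM in aldosterone medium and 22.0, 35.2 and 24.7 CPM in vehicle medium. It was higher in 5 of 6 same-numbered pairs. The change in mdx minus that in C57 was -0.15 (SE 0.23, adjusted p = 1.0, edgeR quasi-likelihood test), opposite in sign to the myotube value and within its error of 0.

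By mean level over the 8 groups, Lpl stood highest in C57 vehicle myotubes (58.8 ± 23.4 CPM) and C57 aldosterone myotubes (41.3 ± 18.2 CPM). The 4 fibroblast groups followed, from 32.1 ± 4.01 CPM (C57 aldosterone medium) to 24.6 ± 1.64 CPM (mdx vehicle medium). Lowest were mdx aldosterone myotubes (19.3 ± 10.98 CPM) and mdx vehicle myotubes (13.5 ± 9.42 CPM; SD, n = 3 each). All 7 pairs of neighbours in this order overlapped in their libraries.

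**Figure D3:**
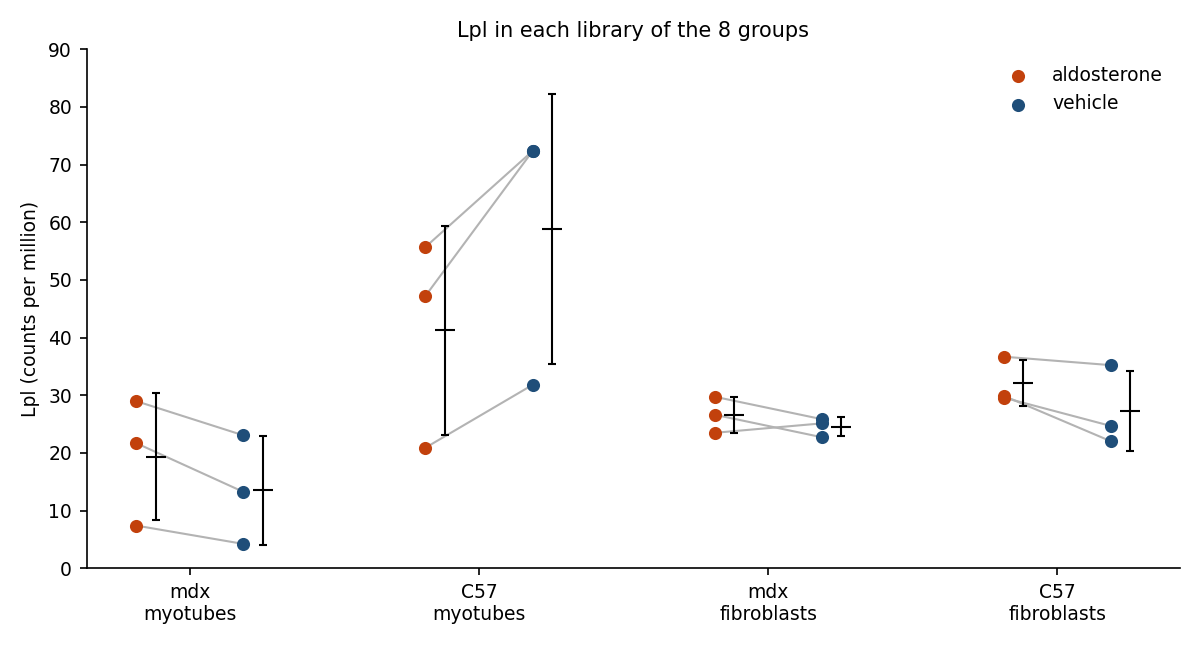
Lpl in CPM in each library, with aldosterone left of vehicle in each cell type and line (for fibroblasts, the medium of myotubes so treated). Lines join libraries with the same replicate number, and black bars are the mean and SD of 3 libraries. In mdx myotubes all 3 lines fall towards vehicle and in C57 myotubes all 3 climb towards it.

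Macrophages also express Lpl, and macrophages and some endothelial cells express Fabp4. Markers of both types moved between the myotube libraries. The 13 macrophage markers summed to 5.84, 222 and 14.8 CPM in mdx with aldosterone and 6.20, 45.5 and 18.2 CPM in mdx with vehicle. In C57 they summed to 13.8, 421 and 237 CPM with aldosterone and 15.0, 524 and 300 CPM with vehicle. All 13 had counts in each myotube group. The sum was lowest in replicate 1 of all 4 groups, as Lpl was. It was lower with aldosterone in all 3 C57 pairs. In mdx it was higher in replicate 2 and lower in replicates 1 and 3, while Lpl was higher in all 3. Lyz2 alone averaged 27.7 CPM in mdx and 139 CPM in C57 myotubes, and single markers could move otherwise than the sum. Tyrobp averaged 2.09 CPM with aldosterone and 0.319 CPM with vehicle in mdx, and 6.33 and 9.30 CPM in C57. In the blocked edgeR test Tyrobp passed as higher in mdx (2.67, adjusted p = 0.00013) and as lower in C57 (-0.57, adjusted p = 0.038). Csf1r averaged 3.04 and 0.970 CPM in mdx, and 12.4 and 16.0 CPM in C57.

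The 12 endothelial markers summed to 37.0, 64.5 and 75.8 CPM in mdx with aldosterone and 38.0, 40.6 and 49.3 CPM in mdx with vehicle. In C57 they summed to 116, 247 and 158 CPM with aldosterone and 87.3, 186 and 143 CPM with vehicle, higher with aldosterone in all 3 pairs while Lpl was lower. This rise of the sum was not shared by every marker. In C57, Emcn averaged 109 CPM with aldosterone and 71.1 CPM with vehicle, but Cdh5 averaged 36.5 and 37.6 CPM and Pecam1 13.6 and 14.9 CPM. Gpihbp1 was at 0 in every library. The 12 adipocyte markers summed to 26.8 to 36.6 CPM in mdx with aldosterone, 29.2 to 33.9 CPM in mdx with vehicle, 30.4 to 31.5 CPM in C57 with aldosterone and 28.9 to 37.7 CPM in C57 with vehicle. From 5 to 8 of the 12 had counts in each group. Cidec and Pck1 were at 0 in all 12 myotube libraries, and Adipoq, Plin1, Lep, Retn and Cfd were at 0 in at least 2 of the 4 myotube groups. What part these cell types have in the Lpl values was not tested.

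**Figure D4:**
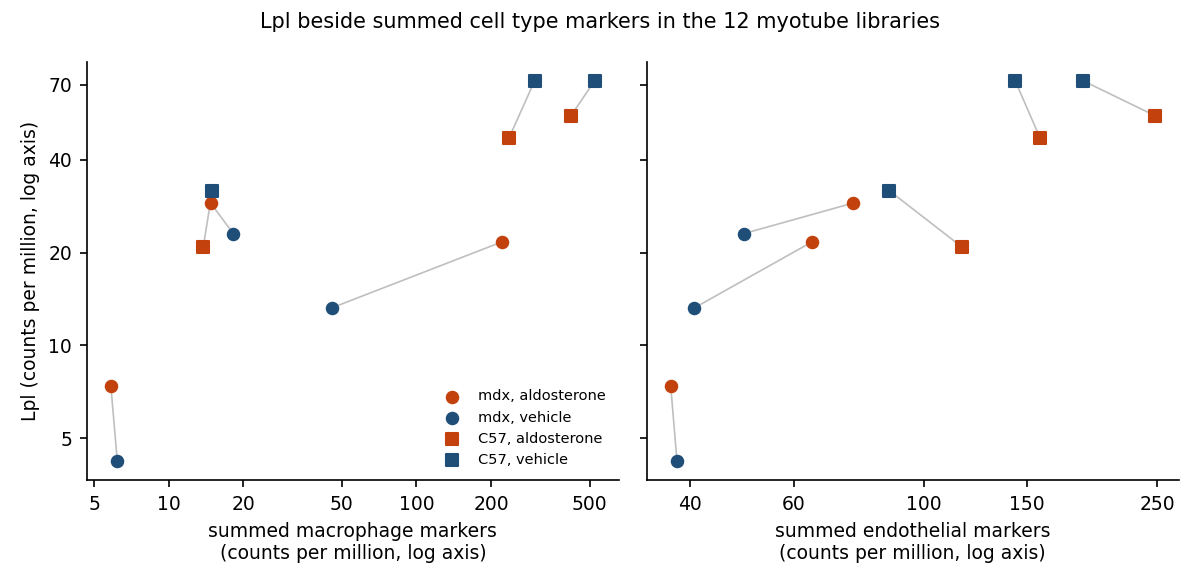
Lpl against the summed macrophage markers (left) and endothelial markers (right) in the 12 myotube libraries, in CPM on log axes. Lines join aldosterone and vehicle libraries of the same replicate number. C57 replicates 2 and 3 hold the highest Lpl and the highest sums, and within pairs the joining lines run in different directions.

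Among the protein-coding genes most like Lpl over the 12 myotube libraries were Epas1 (Pearson r = 0.958 of log2 CPM), Adgrf5 (0.920), Ptprb (0.917) and Csrp3 (0.916), of 10393 genes compared. Within the 6 mdx libraries alone these correlations were 0.880 to 0.955, and within the 6 C57 libraries 0.447 (Csrp3) to 0.886. Adgrf5 and Ptprb are genes of endothelial cells and Csrp3 of striated muscle. The macrophage genes C1qb (r = 0.880) and Csf1r (0.877) ranked 19 and 21. Of the other members expressed highly enough to be compared, Cd36 was the most like Lpl (0.764) and Plin2 the least (-0.777) over both lines. Within the 6 mdx libraries r was 0.759 for Cd36 and -0.917 for Plin2, and within the 6 C57 libraries -0.031 and 0.0010. In fibroblasts the gene most like Lpl was Eef1akmt2 (0.942 over 12 libraries). These correlations are descriptions, since the libraries compared share groups and replicate numbers.

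Few of the other members passed the test of aldosterone in myotubes, and the count depended on whether same-numbered libraries were compared directly. Same-numbered vehicle and aldosterone libraries deviated together in both lines, so values with the replicate number as a block are given beside those without. Without the block, 0 of 9 members passed in mdx (beside 0% of all 15763 genes), 0 of 9 in C57 (beside 0.0127%) and 0 of 10 in the mean of both lines (beside 0.216%). At an unadjusted p below 0.05 these counts were 2, 0 and 2, beside 3.44%, 4.97% and 7.4% of all genes, and DESeq2 called 0 in each. With the block, 2 of 9 passed in mdx, 1 of 9 in C57 and 4 of 10 in the mean, beside 2.33%, 4.98% and 8.96% of all genes.

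Ucp3 fell with aldosterone in the mean of both lines, by -0.43 on the log2 scale (SE 0.07, adjusted p = 0.00019 with the block; SE 0.17, adjusted p = 0.571 without). It had 9.69, 9.15 and 14.5 CPM in mdx with aldosterone, against 12.3, 11.5 and 20.03 CPM with vehicle. In C57 it had 17.2, 14.1 and 12.8 CPM with aldosterone, against 24.7, 18.3 and 17.4 CPM with vehicle, and these libraries did not overlap. It was lower in 6 of 6 pairs, by -0.33 to -0.53. Here and for the members below, the share of all genes without overlap or with every pair in 1 direction was not counted. With the block it passed in mdx (-0.39, adjusted p = 0.041) and in C57 (-0.46, adjusted p = 0.0032). The call on the mean held without any single replicate number (adjusted p 0.00011 to 0.0047). The C57 call was lost without C57 replicate 1 (adjusted p = 0.0544), and the mdx call without C57 replicate 3 or any of the mdx replicates (0.0664 to 0.444). In the same blocked fit 2 of 12 myotube markers passed, both lower with aldosterone. Myh3, the embryonic myosin heavy chain, fell by -0.46 (SE 0.05, adjusted p = 7.72e-07), and Myh8, the perinatal one, fell by -0.19 (SE 0.05, adjusted p = 0.023). Their part in the Ucp3 value was not tested. Ucp3 overlaps the antisense gene Gm10603, which lay at 0.457 to 2.71 CPM over the 24 libraries.

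Fabp4 rose with aldosterone in the mean of both lines by 1.11 (SE 0.18, adjusted p = 0.00045 with the block; SE 0.46, adjusted p = 0.571 without). It had 1.41, 3.50 and 5.14 CPM in mdx with aldosterone, against 1.08, 1.18 and 0.825 CPM with vehicle, without overlap. In C57 it had 2.08, 10.6 and 6.16 CPM with aldosterone, against 1.43, 5.71 and 3.99 CPM with vehicle. It was higher in 6 of 6 pairs, by 0.38 to 2.64 on the log2 scale, and the share of all genes with such pairs was not counted. With the block the change was 1.49 in mdx (adjusted p = 0.0072) and 0.72 in C57 (adjusted p = 0.0593). The mdx call was lost without mdx replicate 2 (0.124) or 3 (0.209), and the call on the mean held without any single replicate number. Fabp4 counted 11 to 270 reads per myotube library. In the mean of both lines with the block, 6 of 13 macrophage markers and 1 of 10 tested endothelial markers passed as higher. Of all genes 8.96% passed in either direction. The mean can join opposite changes. Tyrobp, counted here as higher, passed as higher in mdx (2.67) and as lower in C57 (-0.57) with the block. Over both lines it averaged 4.21 CPM with aldosterone and 4.81 CPM with vehicle. In C57, where Fabp4 was higher in all 3 pairs, the macrophage sum was lower in all 3 and the endothelial sum higher in all 3. In mdx the macrophage sum was higher in replicate 2 and lower in replicates 1 and 3. The mdx endothelial sum was higher in replicates 2 and 3 (64.5 and 75.8 against 40.6 and 49.3 CPM). It was lower in replicate 1 (37.0 against 38.0 CPM). The part of these cell types was not tested.

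Smaller blocked changes passed for Fabp3, which rose by 0.16 (SE 0.05, adjusted p = 0.033, higher in 6 of 6 pairs), and for Angptl4, which fell by -0.22 (SE 0.07, adjusted p = 0.038, lower in 5 of 6 pairs). Each was lost in 5 of the 6 fits that left out a replicate number. The other members did not pass with or without the block. Pdk4, the most abundant of the oxidation genes, changed by -0.06 (SE 0.05), Cpt1a by 0.08 (SE 0.05), Plin2 by 0.11 (SE 0.05), Cd36 by 0.14 (SE 0.05) and the barely detected Cpt1b by 0.87 (SE 0.42) in the mean of both lines with the block.

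**Figure D5:**
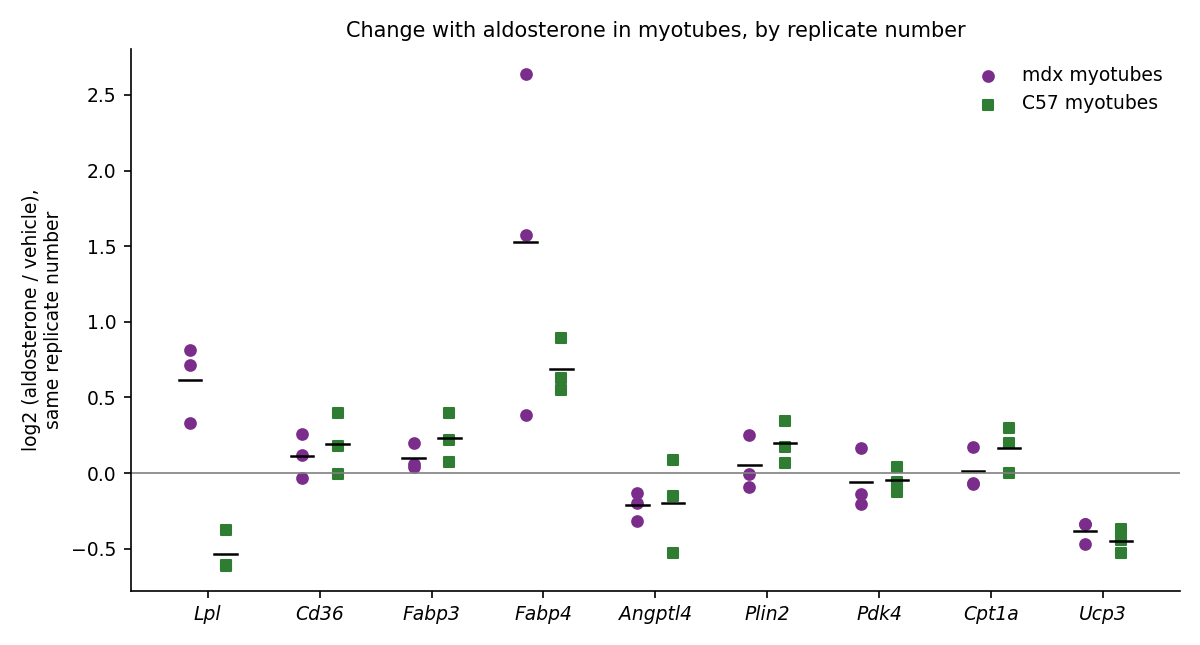
Log2 ratio of aldosterone to vehicle myotubes of the same replicate number, for the members other than Cpt1b, with mdx (circles) left of C57 (squares). Black marks are the mean of 3 pairs. Ucp3 lies below 0 and Fabp4 above 0 in all 6 pairs, and Lpl lies above 0 in mdx and below 0 in C57.

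The upstream sequence of Ucp3 is shown because it was the member that fell in every pair, and that of Cpt1a because it went the opposite way between the cell types. Both are the 250 bases before the RefSeq gene start on GRCm38.p6, a different build from that of the counts. RefSeq promoters were at hand for 6 of the 10 members (Cd36, Fabp3, Plin2, Pdk4, Cpt1a and Ucp3). Capitals mark the nuclear receptor half-site AGGTCA, read on either strand.
Ucp3, chr7:100472741-100472990, plus strand: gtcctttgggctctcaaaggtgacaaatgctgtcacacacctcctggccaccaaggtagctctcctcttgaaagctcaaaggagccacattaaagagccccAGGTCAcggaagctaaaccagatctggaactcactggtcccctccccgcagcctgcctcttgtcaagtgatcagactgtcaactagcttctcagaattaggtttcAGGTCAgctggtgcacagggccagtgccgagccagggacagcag
Cpt1a, chr19:3323051-3323300, plus strand: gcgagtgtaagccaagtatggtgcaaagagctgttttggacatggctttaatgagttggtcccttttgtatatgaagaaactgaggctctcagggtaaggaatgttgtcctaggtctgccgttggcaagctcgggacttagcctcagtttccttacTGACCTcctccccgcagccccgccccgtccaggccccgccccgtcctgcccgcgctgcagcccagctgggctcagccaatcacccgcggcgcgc
Ucp3 holds the half-site at 149 to 144 and at 44 to 39 bases upstream of the start, and Cpt1a holds its reverse complement, TGACCT, at 94 to 89 bases upstream. The half-site was present on either strand in 4 of the 6 members and in 14% of 32851 promoters. The PPAR/RXR direct repeat (AGGNCA, any 1 base, AGGNCA) was found in 0 of the 6 and in 0.338% of all promoters. A steroid receptor half-site, AGAACA, was found in 0 of the 6 and in 16.1% of all promoters. The full steroid receptor element was found in 0 of the 6 and in 0.0609%. A match of letters is a description and no match speaks of this window alone.

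Around the members, the lists changed as follows in the mean of both myotube lines with the block, with 0 called in any of these lists without it. In lipid droplets and lipolysis 3 of 17 tested genes rose and 1 fell. G0s2, which inhibits the lipase ATGL, rose by 0.46 (SE 0.07, adjusted p = 3.72e-05), Pnpla2, which encodes ATGL, by 0.30 (SE 0.05), and Plin4, a droplet coat protein, by 0.81 (SE 0.19). In mitochondrial fatty acid oxidation 2 of 23 rose and 2 fell. Acadl rose by 0.18 (SE 0.04) and the thioesterase Acot2 by 0.19 (SE 0.05), while the carrier Ucp2 fell by -0.51 (SE 0.06, adjusted p = 5.37e-06), to 19.3 CPM with aldosterone against 27.9 CPM with vehicle. Of the PPAR regulators 2 of 18 rose and 1 fell. Prkaa1 and Prkaa2, the catalytic subunits of the energy sensor AMPK, rose by 0.25 (SE 0.04) and 0.20 (SE 0.04), and the oxysterol receptor Nr1h2 fell by -0.14 (SE 0.04). In the uptake list, 1 of 17 tested genes rose (Cav1, by 0.39, SE 0.09) and 2 fell, the acyl-CoA synthetase Acsl6 by -0.33 (SE 0.05) and the fatty acid transporter Slc27a1 by -0.21 (SE 0.06). Scd1 and Mlxipl were the 2 of 11 synthesis genes that rose, by 0.23 and 0.68. The share of all genes called in this fit was 8.96%.

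Between the lines, no member passed in myotubes. With both treatments of a replicate number summed, 0 of 10 passed, beside 0.136% of all genes. With vehicle 0 of 10 passed, beside 0.362%, and with aldosterone 0 of 10, beside 0.311% (edgeR quasi-likelihood test). At an unadjusted p below 0.05 the counts were 4, 6 and 3, beside 14.7%, 14.4% and 15.7% of all genes. DESeq2 called 2 (Cd36 and Fabp3), 0 and 1 (Fabp3), beside 616, 370 and 460 genes in all. Lpl differed by -1.60 (SE 0.61) in the summed counts, with a mean of 16.4 CPM in mdx and 50.05 CPM in C57, by -2.18 (SE 0.69) with vehicle and by -1.10 (SE 0.66) with aldosterone. These libraries are those of the contrast that chose Lpl, so its values are a description, although Lpl is counted among the 10.

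Cd36 differed by -0.42 (SE 0.12, adjusted p = 0.234) and Fabp3 by -0.41 (SE 0.11, adjusted p = 0.232) in the summed counts. Cd36 had 148, 143 and 170 CPM in mdx with aldosterone, against 204, 247 and 183 CPM in C57 with aldosterone. With vehicle it had 124, 132 and 174 CPM in mdx and 181, 188 and 183 CPM in C57. Over both treatments all 6 mdx libraries of each of these 2 genes lay below all 6 C57 libraries. The share of all genes so separated was not counted. Pdk4 differed by -0.42 (SE 0.16), Ucp3 by -0.44 (SE 0.22) and Fabp4 by -1.16 (SE 0.60), and Cpt1a by 0.24 (SE 0.12), Plin2 by 0.35 (SE 0.21) and Angptl4 by 0.20 (SE 0.24), none past the threshold. The myotube markers summed to 27609 to 42969 CPM in mdx and 40088 to 46817 CPM in C57, and the part of this difference in the values above was not tested. Of the lists around the members, 1 gene passed between the lines: Rxrg was lower in mdx with aldosterone, at 13.2 CPM against 22.9 CPM in C57 (-0.80, SE 0.14, adjusted p = 0.0402).

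No member passed the test of medium from aldosterone-treated myotubes in fibroblasts. Of 8 members tested, 0 passed in mdx and 0 in C57 (beside 0% of 16671 genes in each), 0 in the mean of both lines (beside 0.012%), and 0 in the difference between the lines (beside 0%). At an unadjusted p below 0.05 the counts were 0, 1, 1 and 0, beside 4.91%, 12%, 15.2% and 2.35% of all genes, DESeq2 called 0 in each, and the replicate block called 0 in each. Plin2 came nearest, at -0.18 (SE 0.06, adjusted p = 0.211) in the mean. It had 66.3, 77.3 and 56.9 CPM in mdx aldosterone medium and 69.1, 72.6 and 70.9 CPM in mdx vehicle medium. In C57 it had 59.8, 57.1 and 58.5 CPM in aldosterone medium and 78.2, 66.6 and 65.5 CPM in vehicle medium, without overlap. The share of all genes so separated was not counted.

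This count moved when fibroblast libraries of mdx replicate 2 were left out. Without mdx aldosterone replicate 2, Plin2 passed in the mean at -0.23 (adjusted p = 0.0173), and 950 genes passed in place of 2. With the block and without both libraries of mdx replicate 2, Plin2 (-0.24, adjusted p = 0.0032), Pdk4 (-0.21, adjusted p = 0.0056) and Angptl4 (-0.18, adjusted p = 0.0097) passed as lower. In mdx aldosterone replicate 2 the myotube markers summed to 179 CPM, the highest of the fibroblast libraries. The part of this sum in the calls was not tested.

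Between the fibroblast lines, Angptl4 was higher in mdx. Fibroblasts of each line received medium of their own line, so the line of the cells and that of the medium cannot be told apart. Angptl4 had 100.0, 120 and 92.2 CPM in mdx and 78.8, 69.0 and 74.2 CPM in C57 in aldosterone medium. In vehicle medium it had 116, 110 and 106 CPM in mdx and 90.8, 68.9 and 82.0 CPM in C57. All 6 mdx libraries lay above all 6 C57 libraries, and the share of all genes so separated was not counted. The log2 difference was 0.46 (SE 0.07, adjusted p = 0.016) in the summed counts, 0.47 (SE 0.10, adjusted p = 0.0425) in aldosterone medium and 0.48 (SE 0.10, adjusted p = 0.043) in vehicle medium. It was the 1 member of 8 that passed in each, beside 2.36%, 1.23% and 1.1% of all genes.

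The Angptl4 call stood near the threshold. In the summed counts it was lost without C57 replicate 3, mdx replicate 1 or mdx replicate 2 (adjusted p of at most 0.0533), while the log2 difference stayed between 0.39 and 0.53. In each medium it was lost in 5 of 6 fits that left out a library. The difference did not pass in vehicle medium when only these 2 groups were fitted.

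Cpt1a and Cd36 lay beside it without passing. Cpt1a differed by 0.18 (SE 0.04, adjusted p = 0.078) in the summed counts. It had 180, 201 and 169 CPM in mdx and 162, 150 and 155 CPM in C57 in aldosterone medium. In vehicle medium it had 178, 187 and 178 CPM in mdx and 165, 162 and 169 CPM in C57. The 6 libraries of mdx were barely separated from the 6 of C57, and the share of all genes so separated was not counted. Cd36 differed by -0.87 (SE 0.20, adjusted p = 0.0586), at 0.728 to 2.67 CPM against 2.65 to 4.10 CPM in C57, where the highest mdx library just overlapped the lowest C57 library. DESeq2 called both, as lower for Cd36 (adjusted p = 0.0039) and higher for Cpt1a (adjusted p = 0.0446), beside 958 genes in all. Of the lists around the members, Slc27a3, a fatty acid transport protein, was higher in mdx in the summed counts by 0.31 (SE 0.06, adjusted p = 0.0247).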

How the data were processed

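RNA-seq counts per gene were deposited for 24 libraries, and the authors made them with featureCounts 1.5.0-p3 on mm39, per the submitters' processing notes. Neither aligner nor annotation is stated. FPKM as deposited served only for comparing levels between genes. Levels of single genes are CPM with TMM scaling over all libraries. Tests used edgeR 4.0.16 (quasi-likelihood, robust, TMM, filterByExpr, Benjamini-Hochberg adjustment over all genes of a fit) in R 4.3.3, on the 12 myotube, the 12 fibroblast or the 12 vehicle libraries, or on counts summed per replicate number. Standard errors were taken from the log2 change and its F statistic and are approximate. DESeq2 1.42.0, RLE scaling, no filter, only the groups compared, each library left out and a replicate block were the alternatives. The procedure was tested on simulated data. The 10 members and all lists were chosen with earlier results of these data known.

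The replicate numbers come from the labels, which do not say what they mark. Deviations from the group means of same-numbered aldosterone and vehicle libraries correlated at 0.36 to 0.70 in C57 myotubes, 0.47 to 0.67 in mdx myotubes and 0.11 to 0.30 in mdx fibroblasts, so these were taken as paired. In C57 fibroblasts they correlated at -0.01 to 0.12. The pairing was less distinct for C57 myotube replicates 2 and 3. They correlated at 0.49 and 0.36 with their own number and at up to 0.35 and 0.26 with another. List genes named are up to 3 per list and comparison, by adjusted p. Of the genes most like Lpl, 1 is not reported here.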

Additional observations from a re-analysis of the deposited data

Results flagged for a closer look

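The change of Lpl with aldosterone in myotubes went in opposite directions in the 2 lines. It was higher with aldosterone in 3 of 3 mdx pairs and lower in 3 of 3 C57 pairs, and the mean log2 change in mdx minus that in C57 was 1.15. This value is part of what chose Lpl, and the difference was not tested.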

How the results depend on the processing

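No called value turned its direction under an alternative. Counts of genes called are given first and counts of members after them. In C57 myotubes, aldosterone changed 2 genes, with 26 without a filter, 57 by DESeq2, 30 when only these groups were fitted and 785 with the replicate block. Leaving out libraries gave 0 without the block and 401 to 857 with it. Members called were 0, with 1 under the replicate block. Leaving out libraries gave 0 members without the block and 1 to 2 with it. In mdx myotubes aldosterone changed 0 genes, with 16 without a filter, 19 by DESeq2 and 367 with the replicate block. Leaving out libraries gave 0 without the block and 101 to 632 with it. Members called were 0, with 2 under the block. Leaving out libraries gave 0 members without the block and 0 to 2 with it. In the mean of both lines 34 genes were called, with 84, 168 and 1412 under the same 3 settings. Leaving out libraries gave 14 to 47 without the block and 739 to 1713 with it. Members called were 0, with 4 under the block. Leaving out libraries gave 0 members without the block and 2 to 4 with it. The Lpl difference between lines lay between 0.60 and 1.73 with libraries left out.

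Between the lines in vehicle myotubes 57 genes were called, with 156 without a filter, 370 by DESeq2, 6 when only these groups were fitted, 433 with the replicate block and 20 to 104 with libraries left out. In aldosterone myotubes 49 were called, with 163, 460, 23 and 397 under these settings and 12 to 37 with libraries left out. Members called were 0 in each, with 1 under the replicate block in each (Lpl, -2.30 with vehicle and -1.18 with aldosterone) and 1 by DESeq2 with aldosterone. Numbers across lines did not pair the libraries, so these blocked values are only a setting, and those of Lpl are a description with no test. The summed counts gave 23 genes, with 344 without a filter, 616 by DESeq2 and 2 to 52 with replicates left out, and 0 members, with 1 without a filter and 2 by DESeq2.

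In fibroblasts, aldosterone medium called 0 genes in C57, with 65 without a filter, 72 by DESeq2 and 5 when only these groups were fitted. Leaving out libraries gave 0 without the block (members 0) and 2 to 865 with it (members 0 to 2). In mdx the medium called 0 genes, with 2 without a filter. Leaving out libraries gave 0 to 24 without the block and 0 to 305 with it. In the mean the medium called 2, with 215 without a filter and 274 by DESeq2. Leaving out libraries gave 1 to 950 without the block (members 0 to 1) and 0 to 1786 with it (members 0 to 3). For the difference between lines it gave 0 genes without the block and 0 to 2 with it. The replicate block changed no fibroblast member call. Between the lines, vehicle medium called 184 genes, with 436 without a filter, 480 by DESeq2 and 93 to 249 with libraries left out. Members called were 1, with 2 without a filter, 2 by DESeq2, 0 when only these groups were fitted and 0 to 1 with libraries left out. Aldosterone medium called 205 genes, with 452, 545 and 89 to 170, and 1 member, with 3, 2 and 0 to 2. The summed counts called 415 genes, with 1460, 958 and 128 to 387, and 1 member, with 3, 3 and 0 to 1. The difference between cell types by line called 1 gene, with 82 without a filter, 359 by DESeq2, 0 with the replicate block and 1 to 309 with libraries left out, and 0 members, with 1 by DESeq2 and 0 to 1 with libraries left out. Between cell types in C57, members called were 7 in place of 6 with the replicate block, whose numbers do not pair the cell types. The member added was Lpl (1.11), whose value is a description, since these libraries are also in the contrast that chose it. Why the counts move was not tested.

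The low counts of Cpt1b in both cell types and of Ucp3 in fibroblasts allow no statement on change. The replicate block decides most myotube calls, and what the numbers mark is not stated. Bulk libraries do not separate cell types.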
